A study of Mus musculus with 2 samples.

Results

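Early granule gene progenitors are described here as 108 cells of 1 mouse liver library, out of 9582 barcodes kept in that library and 14303 kept in the series. They were chosen from their own transcripts: a barcode with at least 200 genes, at least 500 unique molecular identifiers (UMIs, each standing for 1 captured transcript) and under 25% mitochondrial UMIs is a member when Elane, Mpo, Prtn3 and Ctsg together give at least 0.5% of its UMIs, Camp and Ngp together give under 1%, and the adult globin genes Hba-a1, Hba-a2, Hbb-bs and Hbb-bt together give under 10%. The levels of these 10 genes are therefore a description of the choice and not a result. The members made up 1.13% of kept barcodes (exact binomial 95% interval 0.925 to 1.36).

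The series holds droplet-based 3′ single-cell RNA counts from the livers of 2 chimaeric mice, with 1 library labelled P180 (postnatal day 180) and 1 labelled E18.5 (late embryo). Both hosts carried a Hhex knockout and had received tdTomato-positive tetraploid embryonic stem cells as blastocysts, so no host without these is among the samples, and the host's own cells may also be in the libraries. Donor and host cells were not told apart here, since 0 rows of the count table name tdTomato. All members come from the library labelled P180.

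Neutrophils form in the marrow, and before birth in the liver, from progenitors that fill their granules in waves. The primary (azurophil) granule comes first and carries myeloperoxidase and the serine proteases of the elastase group. The secondary and tertiary granules, with lactoferrin, cathelicidin and gelatinase, are made later, as the cells leave division. Monocytes and basophils arise from neighbouring progenitors, some of which transcribe primary granule genes too.

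The kept barcodes were very unlike in makeup between the libraries. Haemoglobin-rich barcodes, with at least 10% of UMIs from the adult globins, were 78.4% of those kept in the library labelled P180 and 2.84% in that labelled E18.5, where the same rule found 1 cell (22402 UMIs). The liver makes red cells mainly before birth, so this makeup runs against the stage labels. Whether labels or files were exchanged was not tested, and the stage of the members is therefore given only as labelled. Stage and library cannot be told apart with 1 library each, and no test between them was made. The libraries shared 28 cell barcodes, and 0 of these were members. Hhex, the gene knocked out in the hosts, had 437 UMIs in the members (104 CPM, counts scaled to 1000000 UMIs) and was found in 90.7% of them. Over all kept barcodes it stood at 41.5 CPM in the library labelled P180 and 99.4 CPM in that labelled E18.5, but the deleted part of the gene is not given, so a 3′ count checks nothing.

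The members were deep cells. They held a median of 39149.5 UMIs (982 to 80715) and 5891 genes (640 to 8233), and their median UMI total was 6.52 times that of all kept barcodes of the library. Of the 108, 11 lay under 10000 UMIs, with a median globin share of 1.00%, against 0.225% in the other 97. Near the limits of the rule, 6 members lay between 0.5% and 0.6% of UMIs from the granule genes and 9 similar barcodes between 0.4% and 0.5% were left out. On the Camp and Ngp limit, 3 members lay between 0.8% and 1%, and 0 barcodes between 1% and 1.2%. On the globin limit, 2 members lay between 8% and 10% and 2 barcodes between 10% and 12%.

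**Figure D1:**
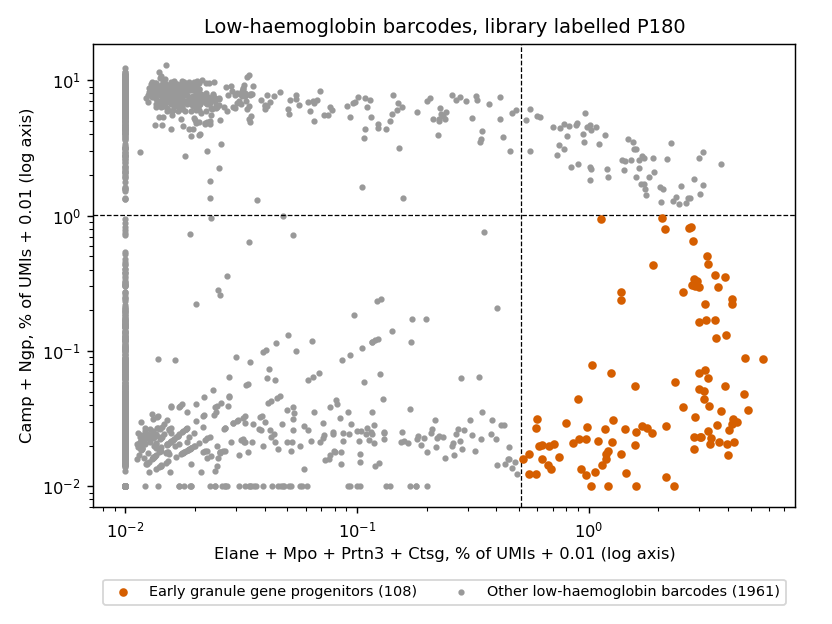
Each point is 1 low-haemoglobin barcode of the library labelled P180, with the share of UMIs from Elane, Mpo, Prtn3 and Ctsg on the x axis and from Camp and Ngp on the y axis (both log axes, in percent plus 0.01). The 108 members fill the lower right corner that the rule cuts out, at a granule share of 0.509% to 5.68%. The barcodes above the upper dashed line are Camp and Ngp neutrophils, which held at least 1.21% of UMIs from Camp and Ngp, against at most 0.946% in members.

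The promoters of the 5 marker genes are shown because they hold 1 short sequence in common. Each is a RefSeq window on GRCm38.p6 of 250 bases before and 50 bases after the annotated start, 5′ to 3′ on the gene's strand: chr10:79886062-79886361 (+) for Elane, chr10:79879417-79879716 (+) for Prtn3, chr11:87793534-87793833 (+) for Mpo, chr14:56102525-56102824 (-) for Ctsg, chr2:28084829-28085128 (-) for Fcnb and chr14:56085148-56085447 (-) for Mcpt8, a basophil protease gene given for contrast. Capitals mark AGGAAGT, a core read by ETS family factors such as PU.1.
Elane: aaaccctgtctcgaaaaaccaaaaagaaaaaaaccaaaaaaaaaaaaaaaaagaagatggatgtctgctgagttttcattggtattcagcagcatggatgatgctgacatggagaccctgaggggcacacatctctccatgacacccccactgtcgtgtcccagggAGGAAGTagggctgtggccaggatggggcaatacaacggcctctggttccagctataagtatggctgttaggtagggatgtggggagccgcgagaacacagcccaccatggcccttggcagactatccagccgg
Prtn3: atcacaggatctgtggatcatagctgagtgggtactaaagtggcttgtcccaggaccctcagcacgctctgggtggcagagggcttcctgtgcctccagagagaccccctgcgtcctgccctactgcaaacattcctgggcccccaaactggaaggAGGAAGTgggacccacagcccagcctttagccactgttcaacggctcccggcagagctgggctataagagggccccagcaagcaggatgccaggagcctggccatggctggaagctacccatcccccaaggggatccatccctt
Mpo: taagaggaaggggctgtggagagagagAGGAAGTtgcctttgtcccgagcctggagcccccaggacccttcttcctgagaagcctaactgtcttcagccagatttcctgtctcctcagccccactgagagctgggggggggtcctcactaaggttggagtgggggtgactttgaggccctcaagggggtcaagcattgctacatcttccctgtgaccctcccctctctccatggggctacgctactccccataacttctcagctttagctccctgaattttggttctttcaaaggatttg
Ctsg: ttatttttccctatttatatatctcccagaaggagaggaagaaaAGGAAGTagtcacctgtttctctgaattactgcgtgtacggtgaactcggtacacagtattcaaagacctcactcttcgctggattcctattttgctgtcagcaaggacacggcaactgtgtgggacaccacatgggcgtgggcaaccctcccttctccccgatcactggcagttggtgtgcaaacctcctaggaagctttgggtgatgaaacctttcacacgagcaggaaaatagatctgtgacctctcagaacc
Fcnb: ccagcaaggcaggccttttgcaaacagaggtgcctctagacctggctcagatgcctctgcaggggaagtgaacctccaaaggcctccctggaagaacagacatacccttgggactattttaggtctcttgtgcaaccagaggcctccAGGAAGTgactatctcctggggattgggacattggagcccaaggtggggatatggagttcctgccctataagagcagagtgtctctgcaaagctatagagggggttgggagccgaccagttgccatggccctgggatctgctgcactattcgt
Mcpt8: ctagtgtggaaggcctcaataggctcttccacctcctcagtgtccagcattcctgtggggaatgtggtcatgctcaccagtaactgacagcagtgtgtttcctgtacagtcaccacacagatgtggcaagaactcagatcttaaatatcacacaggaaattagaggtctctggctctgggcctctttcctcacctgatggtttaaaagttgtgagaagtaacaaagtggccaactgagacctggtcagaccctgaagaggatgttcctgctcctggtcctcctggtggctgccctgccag
AGGAAGT was picked out after these sequences had been read, and both strands were searched. It occurred once, on the gene's strand, in all 5 marker promoters, 84 bases before the start in Elane, 94 in Prtn3, 223 in Mpo, 206 in Ctsg and 103 in Fcnb. It was absent from the Mcpt8 window, and from those of the primary granule genes Ms4a3, Nkg7, Srgn and Cd63, and occurred in that of Cst7. It was present in 9.35% of 32851 promoter windows of the same length. The other 4 motifs searched the same way were TTGCNNAA (in 10.8% of windows), TGTGGT (16.8%), AACGG (17.4%) and AGATAA (11.2%), and each was found in at most 2 of the 5 marker promoters. A match is a string of letters and not a shown binding site.

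Primary granule genes were abundant in the members, as the rule required. Summed over all members, the calprotectin genes S100a9 (15286 CPM) and S100a8 (11237 CPM) stood above all 4 of the rule's granule genes, the highest of which was Elane (7369 CPM). The members differed widely in this. The 42 cells of cluster 1, described below, had 34283 CPM of S100a9 and 23238 CPM of S100a8. The other members had 3999 and 4107 CPM. Elane, encoding neutrophil elastase, gave a median of 0.688% of a member's UMIs (0% to 2.33%), against a median of 0% in Camp/Ngp neutrophils, the 921 low-haemoglobin barcodes with at least 1% of UMIs from Camp and Ngp. Mpo, encoding myeloperoxidase, gave 0.585% (0.0566% to 1.41%) and was found in all 108 members. Prtn3 (proteinase 3) gave 0.699% (0% to 1.51%) and Ctsg (cathepsin G) 0.278% (0% to 1.12%). The 108 members, with 4.66% of the library's kept UMIs, held 80.8% of its Ctsg UMIs, 68.1% of Mpo, 59.8% of Elane and 56.2% of Prtn3.

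Fcnb, encoding ficolin B, was the marker the rule did not use. The other 4 had to be high in members, so Fcnb is not compared with them here. The level of Fcnb was 827 CPM in members (exact Poisson interval 799 to 855), against 1239 CPM in Camp/Ngp neutrophils, and the members held 12.2% of its UMIs. Per member it gave a median of 0.0565% of UMIs and was at 0 in 19 of 108. Against monocytic cells, the 156 barcodes with at least 0.1% of UMIs from Csf1r, F13a1, Ly86 and Ms4a6c that met neither granule limit, Fcnb was higher at 827 CPM, against 119 CPM.

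Levels below are UMIs summed over a group and scaled to CPM as above, and ratios are log2 of members over the other group with exact conditional 95% intervals. These intervals treat UMIs as independent, cover counting error only and leave out the spread between cells, and cells of 1 library are not replicates, so no test was made. A gene was compared when it had at least 50 UMIs in either group, which is 11.9 CPM in members and 2.76 CPM in Camp/Ngp neutrophils. A gene that reached this only in members therefore had to be higher there. Against Camp/Ngp neutrophils, 35.9% of 9335 genes were at least 2-fold higher in members and 9.2% at least 2-fold lower, with a median log2 ratio over all genes of 0.63. After that median was subtracted, 17.2% were higher and 17.8% lower, so list medians are read below against 0.63.

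Of 20 primary granule genes beyond the rule, 10 were at least 2-fold higher in members than in Camp/Ngp neutrophils and 1 was lower, with a list median of 1.01. After subtraction of the median of all genes 8 were higher and 3 lower. Cst7, encoding the protease inhibitor cystatin F, had 159 CPM in members, against 15.7 CPM in Camp/Ngp neutrophils (log2 ratio 3.34, 3.14 to 3.55). Nkg7, a granule membrane protein gene, had 203 CPM in members, against 25.3 CPM, and Srgn, encoding the proteoglycan serglycin that packs granule proteases, 2711 CPM, against 602 CPM. The 1 lower gene was Lyz2 (lysozyme), with 1010 CPM in members, against 10321 CPM in Camp/Ngp neutrophils. Lysozyme is stored in later granules as well.

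Genes of later granules were low. Of 19 secondary and tertiary granule genes compared, 0 were at least 2-fold higher and 16 at least 2-fold lower, with a list median of -3.57, or -4.50 without the 5 basophil-gene members described below. Ltf (lactoferrin) had 15.04 CPM in members, against 6139 CPM in Camp/Ngp neutrophils, and Lcn2 (lipocalin 2) 206 CPM, against 11782 CPM. Camp and Ngp limits chose the members, and these genes follow them in granule formation, so the direction was partly set by the rule. Free RNA from lysed cells may also bear on the low end. Cells were thinned to 2000 UMIs each, with 7 members and 927 haemoglobin-rich barcodes too shallow and left out. Ltf was then found in 3.96% of members and in 4.87% of haemoglobin-rich barcodes. The own-depth medians of these groups were 39149.5 and 5409 UMIs. At their own depth the shares were 44.4% and 11.8%. Thinned the same way, Ngp was found in 16.8% of members and 16.8% of haemoglobin-rich barcodes. Per member Ngp reached 0.348% of UMIs, with a median of 0.00408%. Haemoglobin-rich barcodes held up to 9.55% of UMIs from Camp and Ngp, so they are no clean measure of free RNA. How much of the members' Ltf and Ngp is free RNA was not tested.

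Genes of mature neutrophils followed. Of 20 compared, 13 were at least 2-fold lower in members and 3 higher, with a median of -2.46. Retnlg, a resistin-like gene of circulating neutrophils, had 3.82 CPM in members, against 1214 CPM in Camp/Ngp neutrophils. The formyl peptide receptor gene Fpr1, which lets neutrophils sense bacterial peptides, had 1 UMI in members and 1514 UMIs in Camp/Ngp neutrophils (log2 ratio -8.45, -13.76 to -5.97). Ifitm1 ran the other way, with 221 CPM in members, against 13.97 CPM, but the 7 cells of cluster 5 described below held 2536.5 CPM and the other members 63.7 CPM. Genes of the NADPH oxidase, the enzyme of the oxidative burst, were lower for 5 of 6, among them Cybb with 154 CPM in members, against 1022 CPM.

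**Figure D2:**
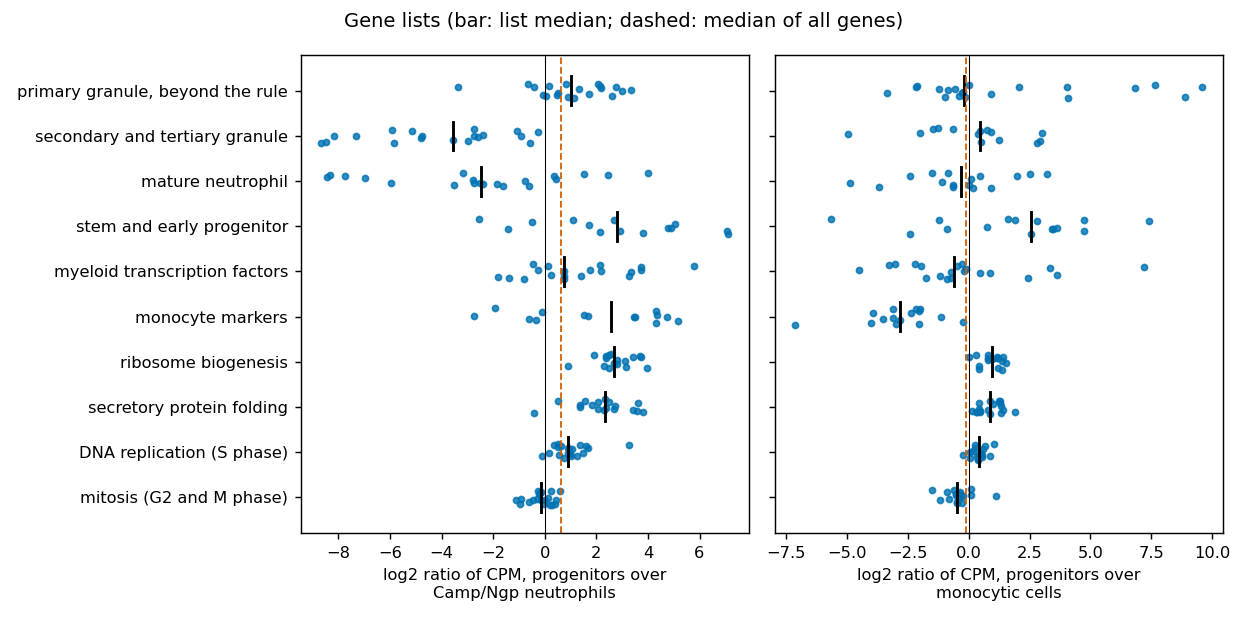
Each point is 1 gene of the named list, at its log2 ratio of CPM in the 108 progenitors over Camp/Ngp neutrophils (left) or monocytic cells (right). Bars mark list medians and the dashed line the median of all genes, 0.63 on the left and -0.10 on the right, with later granule genes far to the left of it in the first comparison and monocyte markers in the second.

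Several genes of early progenitors were higher. Of 14 stem and early progenitor genes compared, 11 were at least 2-fold higher in members than in Camp/Ngp neutrophils and 2 lower. Of the 11, 6 reached 50 UMIs in members alone, Cd34, Sox4 and Gata2 among them, and so had to be higher, so the count is a description. The list median was 2.80, against 1.63 with a minimum of 200 UMIs and 1.37 with a granule limit of 2%. The other 5 reached 50 UMIs in both groups, among them Kit, Myb and Cdk6, a cyclin-dependent kinase gene with 286 CPM in members, against 44.6 CPM. Cd34, a surface sialomucin of blood progenitors, had 28.4 CPM in members, against 1.05 CPM (log2 ratio 4.76, 4.05 to 5.54). Kit, the stem cell factor receptor, had 33.9 CPM in members, against 4.47 CPM, and Sox4 45.8 CPM, against 0.331 CPM. Gata2, a factor of stem cells and basophils, had 43.9 CPM in members, against 0.331 CPM, and 77.7% of its UMIs lay in the 5 basophil-gene members.

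Machinery for making ribosomes and secreted protein stood high. Of 17 ribosome biogenesis genes, 16 were at least 2-fold higher in members than in Camp/Ngp neutrophils and 0 lower (median 2.69), led by Rrp9, Gnl3 and Gar1. Npm1 (nucleophosmin) had 1695 CPM in members, against 194 CPM. Of 18 genes for folding in the endoplasmic reticulum, 16 were higher and 0 lower (median 2.32), or 13 and 1 after subtraction. Calr, encoding the chaperone calreticulin, which binds the myeloperoxidase precursor, had 1406 CPM in members, against 99.3 CPM (log2 ratio 3.82, 3.75 to 3.90). Against the 86 low-haemoglobin erythroid cells, chosen on Gata1, Klf1, Car1 and Epor with little monocyte transcript, 18.6% of 7700 genes were higher in members and 16.7% lower, while 15 of the 18 folding genes were higher and 11 of 18 ribosome biogenesis genes lower. The median of all genes was -0.20 here, and after its subtraction 15 folding genes were higher and 6 ribosome biogenesis genes lower.

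Division genes were less clear. Of 20 DNA replication genes, 8 were at least 2-fold higher in members than in Camp/Ngp neutrophils and 0 lower, but their median of 0.91 lay near the 0.63 of all genes, and after subtraction of that median 2 were higher. Of 20 mitosis genes, 0 were higher and 1 was lower (median -0.15, but 0.44 without the 100 members holding other-lineage marker UMIs and 0.10 with CPM averaged over cells), and Mki67 had 113 CPM in members, against 219 CPM. After thinning to 2000 UMIs, 98.0% of members and 58.3% of Camp/Ngp neutrophils had a UMI of the replication list. In haemoglobin-rich barcodes 36.9% had one. For the mitosis list the shares were 94.1% of members, 70.9% of Camp/Ngp neutrophils and 81.9% of haemoglobin-rich barcodes. The haemoglobin-rich barcodes held the mitosis list at 2914 CPM, against 2931 CPM in members, and the replication list at 1371 CPM, against 2592.5 CPM. They are therefore no measure of free RNA for these lists, and its part was not tested.

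Members differed from monocytic cells in fewer genes. Of 8080 genes, 7.33% were at least 2-fold higher in members and 15.7% at least 2-fold lower, with a median log2 ratio of -0.10. Of 15 monocyte markers, 14 were lower and 0 higher (median -2.82), but Csf1r, F13a1, Ly86 and Ms4a6c chose the monocytic cells. Fn1 (fibronectin), which chose neither group, had 2.39 CPM in members, against 337 CPM in monocytic cells. Ms4a3, a membrane protein gene of granulocyte and monocyte progenitors, had 1245 CPM in members, against 2.62 CPM (log2 ratio 8.89, 8.01 to 9.95). Ms4a3 reached 50 UMIs in members alone, so it had to be higher. Against Camp/Ngp neutrophils, 9 of 14 monocyte markers were higher in members, 3 of which reached 50 UMIs in members alone, and 2 were lower, with F13a1 at 292 CPM in members, against 14.4 CPM.

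Other lists against monocytic cells were mixed. Of 15 stem and early progenitor genes, 10 were at least 2-fold higher in members and 3 lower, but 9 of the 10 reached 50 UMIs in members alone and so had to be higher. Cd34 had 28.4 CPM in members, against 66.5 CPM. Of 17 ribosome biogenesis genes, 8 were higher and 0 lower, and of 18 folding genes, 7 were higher and 0 lower. Of 20 primary granule genes beyond the rule, 7 were higher, 5 of them through members alone, and 4 lower. The higher ones were led by Nkg7, with 850 UMIs in members and 1 UMI in monocytic cells. Cd63, encoding a tetraspanin of the azurophil granule membrane, had 798 CPM in members, against 3.93 CPM. Nkg7 and Cd63 are among the 5 that reached 50 UMIs in members alone, so both had to be higher. In the 20 cells of cluster 3, described below, Nkg7 had 0 UMIs.

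Receptors for growth factors and chemokines ranked the groups in different orders. Csf3r, the receptor for granulocyte colony-stimulating factor, had 52.0 CPM in members, against 63.6 CPM in Camp/Ngp neutrophils and 104 CPM in monocytic cells. Csf1r, the macrophage colony-stimulating factor receptor, had 27.7 CPM in members, against 2.54 CPM in Camp/Ngp neutrophils and 124 CPM in monocytic cells. Of 17 receptor genes, 5 were at least 2-fold higher in members than in Camp/Ngp neutrophils and 2 were lower, against 35.9% and 9.2% of all genes. After subtraction of the median of all genes 4 were higher and 6 lower, so the balance turns with the scaling. Cxcr2, which draws mature neutrophils out of the marrow, was among the lower, with 16.5 CPM in members, against 93.8 CPM. Against monocytic cells 1 of 19 was higher and 9 were lower, against 7.33% and 15.7% of all genes. The 1 higher gene reached the minimum in members alone, so it had to be higher. Csf1r is among the lower, but it helped choose the monocytic cells, so its direction there was set by that choice.

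Genes listed for severe congenital neutropenia and other inherited neutrophil disorders in people were present in the members. Of 20 such genes, including the rule gene Elane, which had to be higher, 9 were at least 2-fold higher than in Camp/Ngp neutrophils and 1, Cebpe, was lower, against 35.9% and 9.2% of all genes. After subtraction of the median of all genes 5 were higher, against 17.2% of all genes. G6pc3, a glucose-6-phosphatase gene, had 36.8 CPM in members, against 3.59 CPM, and Jagn1, an endoplasmic reticulum protein gene, 41.1 CPM, against 7.89 CPM. Of 16 genes listed for the fetal programme, 6 reached the minimum and were compared. Of these, 4 were higher and 1, Lin28a, was lower (log2 ratio -2.17). Of the 4, 2 reached 50 UMIs in members alone, Lin28b among them, and so had to be higher. Lin28b, a let-7 inhibitor gene of fetal blood stem cells, had 13.4 CPM in members, against 0.718 CPM in Camp/Ngp neutrophils and 8.64 CPM in monocytic cells.

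Among all genes outside the rule with at least 200 UMIs, the highest ratios to Camp/Ngp neutrophils after Cpa3, Prss34 and Mcpt8 were those of Ccl9, a chemokine gene with 54.0 CPM in members, against 0.718 CPM, and Apba1, with 49.2 CPM, against 0.718 CPM. The lowest were those of Ceacam10 and Plbd1, each with 1 UMI in members and with 3609 and 2910 UMIs in Camp/Ngp neutrophils. Plbd1 was also lowest against monocytic cells, where it had 309 UMIs.

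Markers of other cell types were sparse. Of 10 macrophage markers 8 were at 0 in members, the C1q genes among them, and the list summed to 15.04 CPM in members, against 5.30 CPM in Camp/Ngp neutrophils. T and NK cell markers summed to 1.43 CPM in members, against 80.0 CPM, and hepatocyte markers to 19.8 CPM, against 10.7 CPM. Erythroid markers summed to 206 CPM in members, against 160 CPM, with Epor at 0 in members. B cell markers summed to 96.9 CPM in members, against 41.5 CPM, most of it Cd79b (42.3 CPM) and Ighm (43.9 CPM). Dendritic cell markers summed to 16.2 CPM in members, against 52.7 CPM, and endothelial markers to 50.1 CPM, against 23.5 CPM. Of the 108, 100 held at least 1 UMI of a B cell, T cell, endothelial or hepatocyte marker. Values without these 100 rest on the 8 other members and are given in the last section, with no test.

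Transcription factors of both the granulocyte and the monocyte line were found in the members. Of 19 compared with Camp/Ngp neutrophils, 9 were at least 2-fold higher and 2 lower, against 35.9% and 9.2% of all genes. Their median of 0.74 lay near the 0.63 of all genes. After subtraction of that median 8 were higher and 4 lower, against 17.2% and 17.8% of all genes. Irf8, a factor needed for monocyte and dendritic cell formation, had 200 CPM in members, against 3.59 CPM in Camp/Ngp neutrophils and 329 CPM in monocytic cells. Gfi1, a repressor needed for neutrophil formation, had 77.1 CPM in members, against 16.8 CPM in Camp/Ngp neutrophils and 2 UMIs in monocytic cells. Cebpe, which drives secondary granule genes, had 249 CPM in members, against 658 CPM in Camp/Ngp neutrophils and 24.9 CPM in monocytic cells. Cebpa, needed for the entry into the granulocyte and monocyte lines, had 64.0 CPM in members, against 4.86 CPM in Camp/Ngp neutrophils and 34.6 CPM in monocytic cells.

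The other factors ranked the groups differently. Klf4, a factor of monocytes, had 89.5 CPM in members, against 8.72 CPM in Camp/Ngp neutrophils and 417 CPM in monocytic cells. Myb, which keeps progenitors dividing, had 134 CPM in members, against 30.3 CPM in Camp/Ngp neutrophils and 10.7 CPM in monocytic cells. Spi1, encoding PU.1, was within 2-fold, with 369 CPM in members, against 506 CPM in Camp/Ngp neutrophils.

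**Figure D3:**
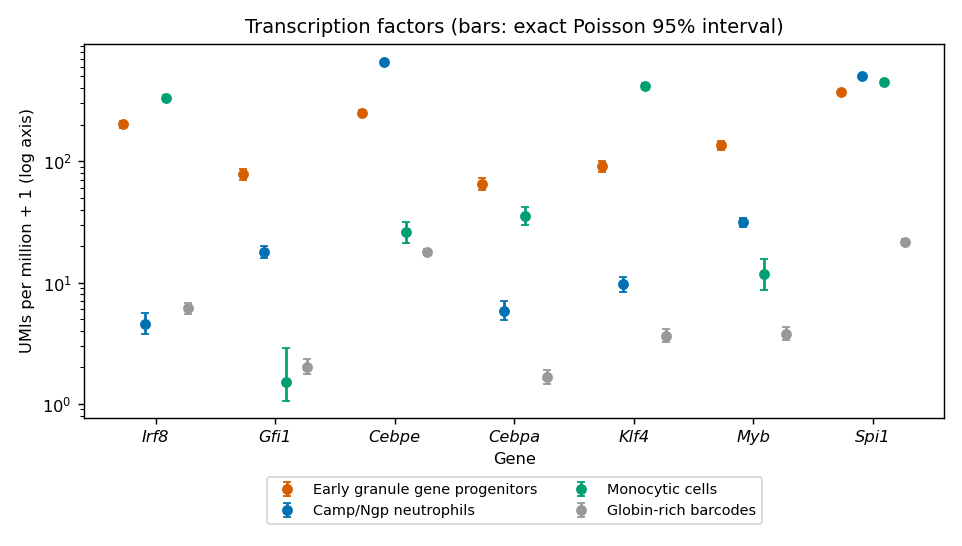
Levels of 7 transcription factor genes in CPM plus 1 (log axis) in members, Camp/Ngp neutrophils, monocytic cells and haemoglobin-rich barcodes, with exact Poisson 95% intervals that cover counting error only. Irf8 in members (200 CPM) lies far above Camp/Ngp neutrophils (3.59 CPM) and below monocytic cells (329 CPM).

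Cell by cell, Irf8 and Gfi1 were mostly found in different members. Of 108, 42 held Irf8 UMIs without Gfi1, 50 held Gfi1 without Irf8, 10 held both and 6 neither. With the 94 members of at least 20000 UMIs thinned to 20000, the counts were 33, 49, 6 and 6. At 2000 UMIs, Irf8 was found in 24.8% of members, 0.667% of Camp/Ngp neutrophils, 41.3% of monocytic cells and 0.501% of haemoglobin-rich barcodes, and at own depth in 48.1%, 3.37%, 94.2% and 1.504%. Gfi1 was found in 11.9%, 1.67%, 0% (exact upper limit 2.43%) and 0.182% of the same groups when thinned, and in 55.6%, 15.9%, 1.28% and 0.546% at own depth. The share in members thus lies above that in haemoglobin-rich barcodes for both genes.

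**Figure D4:**
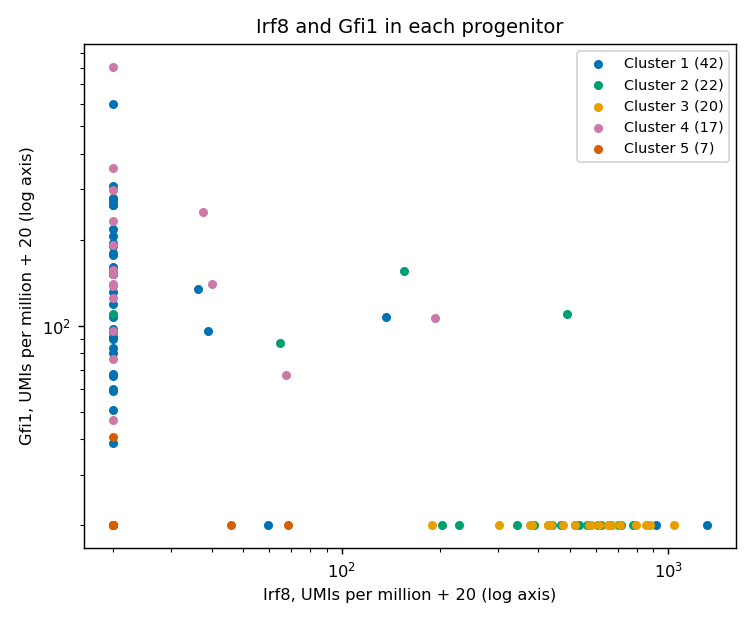
Each point is 1 member, with Irf8 on the x axis and Gfi1 on the y axis in CPM plus 20 (log axes), coloured by cluster. Most members lie along one axis or the other, and 10 of 108 lie off both.

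Members with at least 2% of UMIs from the 4 granule genes had less Irf8 than those under 2%. Binned by the share of UMIs from the 4 granule genes, Irf8 stood at 395 CPM in the 22 members from 0.5% to 1%, 419 CPM in the 27 from 1% to 2%, 52.4 CPM in the 48 from 2% to 4% and 2.59 CPM in the 11 at 4% and over. Gfi1 ran the other way, at 7.88, 8.79, 112 and 215 CPM over the same bins. Lyz2 stood at 2694, 1224, 307 and 285 CPM and Ms4a3 at 187, 388, 1839 and 2614 CPM. Median depth was between 33672 and 41484 UMIs in the 4 bins, and the bin at 4% and over rests on 11 cells.

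Clustering of the members alone, with the rule genes left out of the clustered genes, gave 5 clusters, which are described by their leading genes and not tested. Cluster 1 (42 cells) led with stefin and S100 genes and held Cebpe at 452 CPM and Camp at 2504 CPM. Cluster 4 (17 cells) had the most Ctsg, 6947 CPM, with Gfi1 at 142 CPM and Myb, a progenitor factor gene, at 263 CPM. Both held Elane above 10000 CPM and little Irf8, 10.2 and 12.3 CPM.

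Cluster 2 (22 cells) led with Hmga2, Cd34 and Ly86 and held Irf8 at 452 CPM. Its first 10 leading genes held 2 of the stem and progenitor list and 1 monocyte marker, Ly86, which was found in 12 of its 22 cells. Cluster 3 (20 cells) led with S100a6 and Lgals3, held Irf8 at 555 CPM and Lyz2 at 4029 CPM, and had 0 Gfi1 UMIs. Klf4 stood at 83.7 CPM in cluster 2 and 368 CPM in cluster 3, and Csf1r at 56.2 and 70.6 CPM. Their members lay lower in granule transcript, with medians of 1.29% and 0.852%, against 3.0% in cluster 1 and 3.66% in cluster 4. At a resolution of 0.3 there were 3 clusters and at 1 there were 6, with adjusted Rand indices of 0.534 and 0.787 against the 5.

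Cluster 5 (7 cells) led with Prss34, Mcpt8 and Cpa3, protease genes of basophils and mast cells, followed by Ms4a2, a subunit gene of the IgE receptor, and Gata2. These cells met the rule mainly through Mpo (4094 CPM) and Ctsg (4638 CPM). Elane stood at 71.3 CPM, Prtn3 at 428 CPM and Cebpe at 0 UMIs. Prss34 was found in 6 of the 7 cells. In 5 members Mcpt8, Prss34, Cpa3 and Ms4a2 gave at least 0.5% of UMIs, and these 5 held 98.2% of the members' Prss34 UMIs, 94.8% of Mcpt8 and 92.8% of Cpa3, but 0.0583% of Elane. Prss34 at 458 CPM over all members, against 0.552 CPM in Camp/Ngp neutrophils, therefore rests on 5 cells. In the library as a whole 15 kept barcodes passed that limit, 2 of them haemoglobin-rich and 0 of them Camp/Ngp neutrophils.

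**Figure D5:**
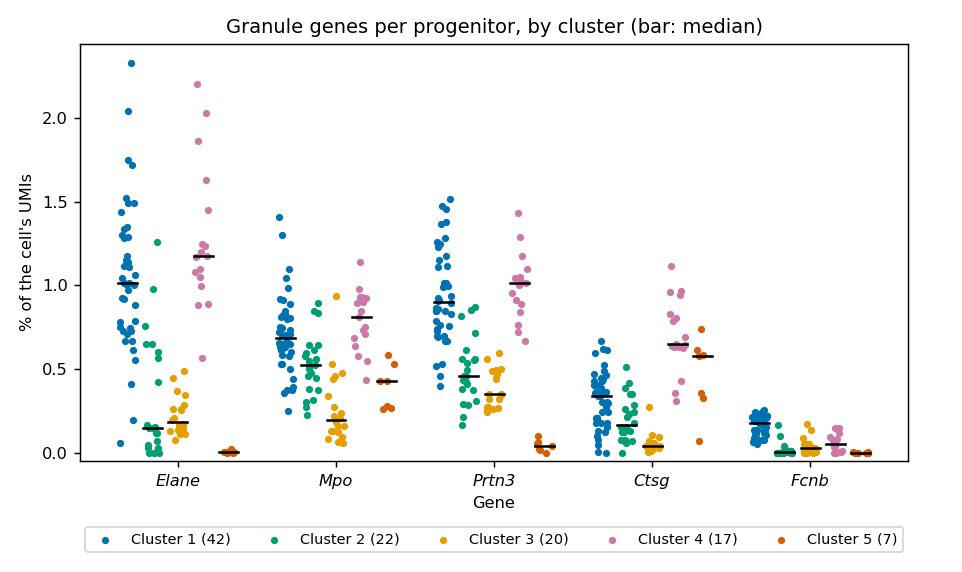
Share of each member's UMIs from Elane, Mpo, Prtn3, Ctsg and Fcnb (y axis, percent), with 1 point per member, grouped and coloured by cluster, and a bar at each median. Cluster 5 lies near 0 for Elane, Prtn3 and Fcnb but not for Mpo or Ctsg.

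Granule genes differed in how closely they ran together across members. Prtn3 (chr10:79874476-79883174) and Elane (chr10:79886247-79888215) are neighbours on mm10, 3073 bases apart. Ctsg (chr14:56099881-56102574) lies on another chromosome. Over the 94 members thinned to 20000 UMIs, Spearman's rho was 0.81 between Elane and Prtn3 and 0.54 between Elane and Ctsg. Pairs on different chromosomes also ran high, at 0.84 for Elane and Ms4a3, 0.77 for Prtn3 and Mpo and 0.69 for Elane and Mpo. A link to distance was not tested. These values share the cells and their depth, and the 4 rule genes chose the members, so they are given as a description. Mpo lies on a further chromosome (chr11:87793581-87804413), and its rho with Ctsg was 0.74. Fcnb (chr2:28076378-28084885) had a rho of 0.86 with S100a8, a calprotectin subunit gene of the cytosol, while Ctsg had 0.02 with S100a8.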

How the data were processed

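Per the labels' protocols, 2 livers gave 3′ v3 droplet libraries read on a NovaSeq. Whole UMI counts for each gene and barcode were deposited, and the file headers name Cell Ranger 7.1.0 as the software that wrote them. Among the submitters' processing notes are mm10, Seurat, edgeR, Trimmomatic and fastp, with no role stated. Members, gene lists and comparison groups were chosen with earlier results of these data known.

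Counts were summed over a group and scaled to 1000000 UMIs (CPM), with exact Poisson intervals, exact binomial intervals for shares and exact conditional intervals for ratios, all at 95%, tested on simulated data. A count of 0 was set to 3 counts in ratios. With 1 library per stage no test was made. Symbols on several rows kept the row of highest total, and such other rows were left out. Named genes were every marker, at most 6 of each list with the largest absolute ratio to Camp/Ngp neutrophils, listed factors and receptors, and the genes of extreme ratio. Members were clustered with scanpy 1.11.5 and leidenalg 0.10.2 (2000 variable genes, 15 components, 15 neighbours, resolution 0.5, seed 1). Doublets were kept: Scrublet's own threshold (0.625) lay above the highest score (0.488) and marked 0 of 9582 barcodes, so it did not work here, and leaving out the 735 highest scores was an alternative. Sequences are RefSeq's, on GRCm38.p6, and gene positions GENCODE's, on mm10. The scripts ran in Python 3.11.15 on scipy 1.17.1, with pandas 2.3.3 for tables, numpy 2.4.6 for arrays and matplotlib 3.10.9 for plots.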

Additional observations from a re-analysis of the deposited data

How the results depend on the processing

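The values are of 1 library, so spread between animals is unknown, and depth limits low genes: 50 UMIs are 11.9 CPM in members. No paired analysis was possible because no result comes from a test. The main values were 108 members, 3348 genes higher and 859 lower than in Camp/Ngp neutrophils, 592 and 1271 for monocytic cells, and 1434 and 1288 for erythroid cells. Of 24 alternatives, 23 gave the 52 list medians and named log2 ratios, and the other, thinning, gave shares of cells. The 52 kept their sign under these 23 except for 2 with the marker-bearing members left out and 1 with CPM averaged over cells. No value of 1 or more in size on the log2 scale changed sign. The cause of the moves below was not tested. With a granule limit of 0.3% the values were against Camp/Ngp neutrophils later granule median -3.34, and against monocytic cells monocyte median -2.15. With 1% the values were against Camp/Ngp neutrophils later granule median -4.46, and against monocytic cells monocyte median -3.30. With 2% the values were 59 members, and against Camp/Ngp neutrophils later granule median -4.07, mature neutrophil median -2.07, progenitor median 1.37, and against monocytic cells progenitor median 1.03, monocyte median -4.67. With Camp and Ngp under 2% the values were against Camp/Ngp neutrophils mature neutrophil median -2.00. Without the 735 highest doublet scores the values were against Camp/Ngp neutrophils later granule median -4.21. Without the 100 members holding a B, T, endothelial or hepatocyte marker UMI the values were 8 members, and against Camp/Ngp neutrophils 5131 genes higher, primary granule median 1.38, later granule median -2.25, mature neutrophil median -0.77, ribosome median 1.88, folding median 2.05, replication median 0.32, mitosis median 0.44, and against monocytic cells 1583 genes higher, progenitor median 1.38, folding median 0.61, monocyte median -3.14, and against erythroid cells 470 genes higher, ribosome median -1.66, replication median -1.26. Scaled by the median of ratios the values were against Camp/Ngp neutrophils 1396 genes higher, 1885 genes lower, primary granule median 0.27, later granule median -4.31, mature neutrophil median -3.20, progenitor median 2.06, ribosome median 1.95, folding median 1.58, replication median 0.17, mitosis median -0.89, and against erythroid cells 720 genes lower, ribosome median -0.68, replication median -0.26. With CPM averaged over cells the values were against Camp/Ngp neutrophils primary granule median 1.27, later granule median -3.17, mature neutrophil median -2.78, ribosome median 2.99, folding median 2.69, replication median 1.33, mitosis median 0.10, and against erythroid cells ribosome median -0.43. With a minimum of 200 UMIs the values were against Camp/Ngp neutrophils 1768 genes higher, progenitor median 1.63, and against monocytic cells 235 genes higher, 656 genes lower, progenitor median 1.78, and against erythroid cells 675 genes higher, 404 genes lower. With 1 UMI the values were against Camp/Ngp neutrophils 9570 genes higher, later granule median -3.28, and against monocytic cells 2599 genes higher, 3770 genes lower, and against erythroid cells 2559 genes higher, 5330 genes lower. At 1.5-fold the values were against Camp/Ngp neutrophils 1325 genes lower, and against monocytic cells 1294 genes higher, 2250 genes lower, and against erythroid cells 2472 genes lower. At 4-fold the values were against Camp/Ngp neutrophils 1002 genes higher, 378 genes lower, and against monocytic cells 181 genes higher, 413 genes lower, and against erythroid cells 907 genes higher, 392 genes lower. With neutrophils at 5% Camp and Ngp or more the values were against Camp/Ngp neutrophils primary granule median 1.28, progenitor median 3.47, ribosome median 3.16, folding median 2.76, replication median 1.17. Without the 5 basophil-gene members (chosen after seeing the data) the values were against Camp/Ngp neutrophils later granule median -4.50.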
